A study of Mus musculus with 29 samples.

Results

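This account covers 6 of the 29 libraries of a mouse reduced representation bisulfite sequencing (RRBS) study, those of embryonic stem cells (ESCs) collected at passage 10 after 6 passages in 1 of 2 media. The 3 libraries of 2i/L p10 came from the male lines J-34, J-35, J-37 kept in 2i/L, and the 3 of S/L p10 from the same lines kept in S/L. The libraries were chosen by their titles alone. All 6 cultures entered their medium at passage 4, and the labels name no allele or transgene in them. Each line was represented once per medium, so the spread given below is that between 3 lines, and p-values measure the spread between these libraries only. RRBS cuts the genome at CCGG sites and reads CpGs near the cuts, which favours CpG-rich DNA. Whether the cells were ESCs could not be checked here, since no RNA was measured.

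The labels do not spell out either medium. In this field S/L stands for serum with leukaemia inhibitory factor, and 2i/L for an inhibitor of Mek1/2 and an inhibitor of Gsk3 beside the same factor. Methylation of CpGs is copied to the new DNA strand after replication by Dnmt1 together with Uhrf1, and set anew by Dnmt3a and Dnmt3b. Culture in 2i/L is known for low global methylation in mouse ESCs. The study's title names the effect of continuous Mek1/2 suppression on developmental potential as its subject. The comparison here asks how much methylation was gone after 6 passages, and whether the share that was lost depended on how methylated or how CpG-dense a region was in S/L.

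The libraries held 12140987 to 14962882 reads over CpGs in 2i/L p10 and 10296723 to 12157684 in S/L p10. The 616001 autosomal CpGs with at least 5 reads in each of the 6 libraries were kept, and each was covered by 14.8 to 18.1 reads on average in 2i/L p10 and by 12.7 to 14.9 in S/L p10. No library stood apart from its group, and the 2 libraries of any same-medium pair had identical counts at 4.00 to 5.69% of CpGs.

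Cells in 2i/L held less than the S/L level of methylation in each line, and the fall was nearly the same in the 3 lines. The mean CpG level was 12.1% in J-34, 12.0% in J-35 and 12.3% in J-37 in 2i/L p10, against 28.2%, 28.4% and 28.0% in the same lines in S/L p10. The groups did not overlap, and the ranges within them were far smaller than the difference. The mean was 12.2% ± 0.171 in 2i/L p10 and 28.2% ± 0.170 in S/L p10 (SD, n = 3 each). That is a loss of 56.9% ± 0.861 of the S/L level (SD, n = 3 lines). The exact two-sided permutation p was 0.1, the smallest that 3 against 3 libraries can give. When CpGs were weighted by their reads, the methylated share was 12.7% ± 0.184 in 2i/L p10 and 27.7% ± 0.630 in S/L p10 (SD, n = 3 each; exact two-sided permutation p = 0.1).

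The highly methylated CpGs were nearly gone. CpGs at 80% or more made up 1.34% ± 0.102 of those measured in 2i/L p10 and 20.4% ± 0.281 in S/L p10 (SD, n = 3 each). CpGs between 20 and 80% were more frequent in the inhibitor medium, at 21.6% ± 0.4004 in 2i/L p10 and 15.4% ± 0.242 in S/L p10. CpGs at 10% or less were 70.0% ± 0.267 of the total in 2i/L p10 and 60.8% ± 0.160 in S/L p10. Each of the 3 shares gave an exact two-sided permutation p of 0.1. In bulk cultures an intermediate CpG can be methylated in a part of the cells or on a part of the copies, and these cannot be told apart. On chromosome X, which these male lines carry once, 2741 CpGs averaged 11.02% ± 0.212 in 2i/L p10 and 22.7% ± 0.129 in S/L p10 (SD, n = 3 each).

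**Figure D1:**
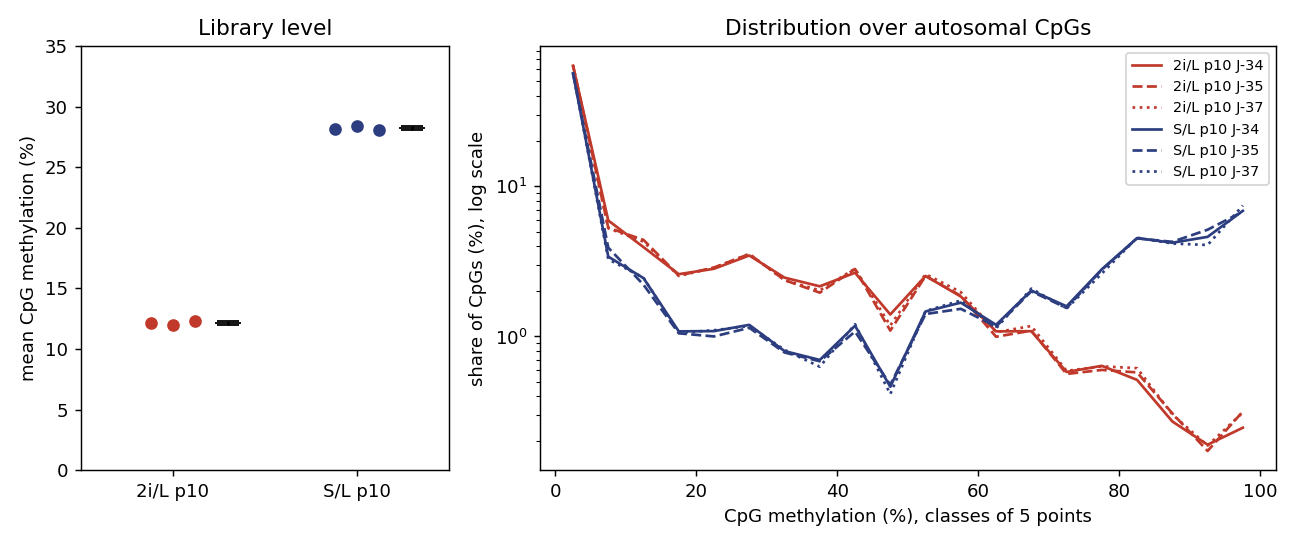
Left, mean methylation of 616001 autosomal CpGs in each library (points) with the mean and SD of the 3 libraries to their right (%). Right, share of these CpGs (%, log scale) in classes of 5 points of methylation (%), 1 line per library. The 2i/L p10 libraries lie near 12.2% and the S/L p10 libraries near 28.2%, and the 2i/L p10 curves are below the S/L p10 curves at levels of 80% and more.

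CpGs were then grouped into bins of 1000 bp with at least 3 of them, which gave 58055 autosomal bins with a median of 64.0 reads per bin and library. A bin was called where limma gave a Benjamini-Hochberg adjusted p under 0.05 and the group means differed by at least 20 percentage points. By this rule 30687 bins (52.9%) were lower and 0 were higher in 2i/L p10. At an unadjusted p under 0.05, 319 bins were higher, and a quasi-binomial model called 30642 lower and 0 higher. The groups did not overlap in 30598 of the 30687 bins called lower. A call already requires group means far apart, so this count adds no support of its own. Because a bin must start high to fall by 20 points, 88.3% of the called bins had 50% or more in S/L p10.

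Among the 27787 bins with 50% or more in S/L p10, 27103 (97.5%) were called lower. Their mean was 35.4% ± 0.517 in 2i/L p10 and 81.4% ± 0.399 in S/L p10 (SD, n = 3 each). The loss was 56.5% ± 0.839 of the S/L level (SD, n = 3 lines). Bins nonetheless ended at very different levels: 1203 (4.33%) were under 10% in 2i/L p10, while 5023 (18.1%) were still at 50% or more and 244 at 80% or more. Over the bins the relative loss had a median of 58.2%, with the middle 50% of bins between 47.0 and 69.3% and 5% of bins below 29.8%.

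How much a bin lost depended on how methylated it was in S/L. Bins between 20 and 60% in S/L p10 had lost close to 72% of their level, and bins at 90% or more had lost 44.4%. The mean of the 1768 bins between 20 and 30% was 7.04% ± 0.227 in 2i/L p10 and 24.9% ± 0.511 in S/L p10, a loss of 71.7% ± 1.51. The 2041 bins between 50 and 60% had 15.4% ± 0.453 in 2i/L p10 and 55.2% ± 0.734 in S/L p10, a loss of 72.0% ± 1.18. From there on the relative loss was smaller in each higher class. It was 69.9% ± 1.11 at 60 to 70%, 65.5% ± 0.905 at 70 to 80% and 56.2% ± 0.840 at 80 to 90% in S/L p10. The 6267 bins at 90% or more had 51.5% ± 0.556 in 2i/L p10 and 92.8% ± 0.120 in S/L p10, a loss of 44.4% ± 0.586 (SD, n = 3 lines for each of these values). In this top class the loss was 44.2% in J-34, 45.1% in J-35 and 44.0% in J-37.

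In percentage points the picture differed. The mean fall was 17.8 points at 20 to 30%, 39.8 points at 50 to 60%, 49.6 points at 70 to 80% and 41.2 points at 90% or more. Since the bins were sorted by the same S/L libraries that enter the loss, the sorting was repeated with other libraries. When each line was sorted by the S/L p10 level of the other 2 lines, the loss was 71.9% ± 1.41 at 50 to 60% and 44.2% ± 0.811 at 90% or more. When bins were sorted by S/L p20 (the same lines in S/L at passage 20), it was 69.6% ± 1.11 at 50 to 60% and 36.3% ± 0.563 at 90% or more. The order of the classes from 50% up was thus the same under all 3 ways of sorting.

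**Figure D2:**
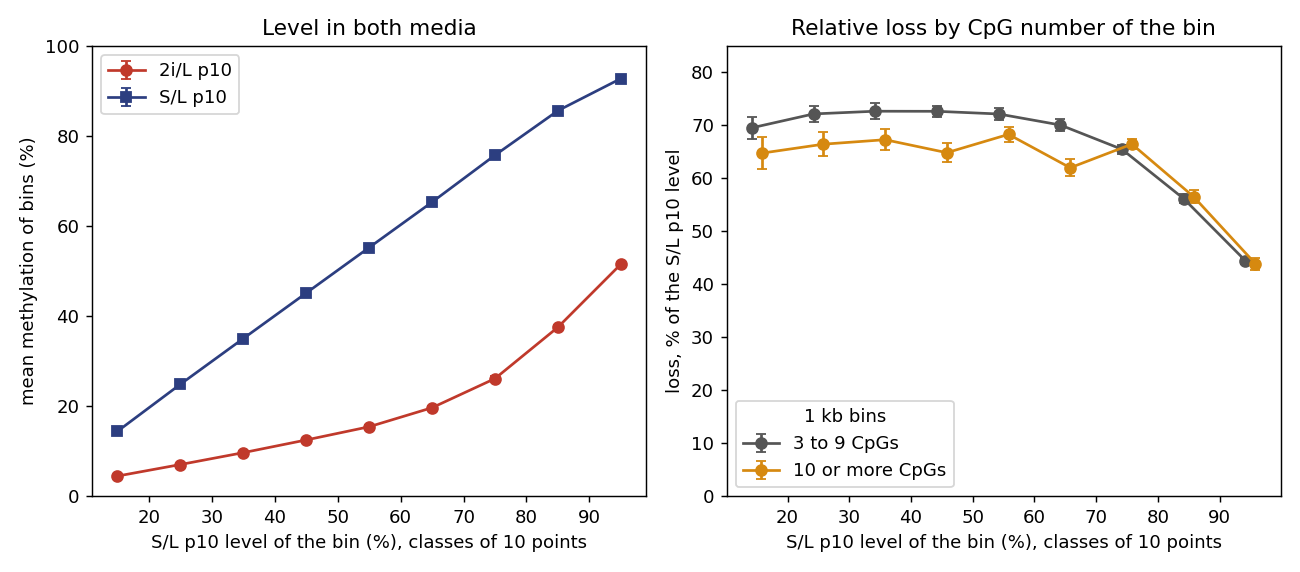
Left, mean methylation (%) of bins in classes of 10 points of their S/L p10 level, in 2i/L p10 and in S/L p10. Right, loss as a percentage of the S/L p10 level in the same classes, for bins of 3 to 9 CpGs and of 10 or more CpGs. Points are means and bars the SD of 3 lines. Classes start at 10%. The loss lies at 62.0 to 72.7% below a level of 70% and is 44.4% (3 to 9 CpGs) and 43.9% (10 or more CpGs) in the class at 90% or more.

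Density was counted in CpGs with at least 5 reads in each of the 6 libraries. A bin of 3 to 9 such CpGs can therefore hold more CpGs in its DNA. Bins that were dense by this count were mostly unmethylated in both media. Bins of 10 or more CpGs averaged 1.67% ± 0.0419 in 2i/L p10 and 3.87% ± 0.0695 in S/L p10. Bins of 3 to 9 CpGs averaged 23.7% ± 0.349 in 2i/L p10 and 56.0% ± 0.316 in S/L p10 (SD, n = 3 each). The share called lower was 3.70% of the 14254 dense bins and 68.9% of the 43801 sparse bins. These shares say little of density as such, because 13219 of the dense bins were under 10% in S/L p10. As a fraction of the S/L level the losses were 56.9% ± 1.80 in dense and 57.7% ± 0.859 in sparse bins (SD, n = 3 lines).

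At matched S/L p10 level, dense bins had lost slightly less than sparse bins. In 9 level classes from 10 to 100%, 1035 dense bins were set against 34252 sparse bins weighted to the same classes. The dense bins stood at 15.4% in J-34, 15.6% in J-35 and 16.1% in J-37 in 2i/L p10, against 40.9%, 41.4% and 40.1% in S/L p10. The weighted sparse bins stood at 14.4%, 14.4% and 14.9% in 2i/L p10, against 41.3%, 41.4% and 40.6% in S/L p10. The loss was 61.5% ± 1.46 in dense and 64.5% ± 1.09 in sparse bins, a difference of -3.05 points ± 0.396 (dense minus sparse, SD, n = 3 lines). It was -2.72, -2.95 and -3.49 points in J-34, J-35 and J-37, and the log2 ratio of dense to sparse did not overlap between the groups (exact two-sided permutation p = 0.1, the smallest possible). Matching held the S/L p10 ratios close to equality (-0.0142, -0.00261 and -0.0177), so this gap adds no support of its own. The difference was -3.38 points ± 0.497 with each line matched on the other 2 lines, and -3.78 points ± 0.442 matched on S/L p20. Matched on S/L p20, it was -6.27 points at 10 to 60% and -0.0825 points at 60 to 100%, a split chosen after the data were seen. The size of this difference depended on how it was measured. It was -0.993 points when density was counted over the CpGs listed in any of the 29 libraries (10040 dense and 25247 sparse bins). It was -1.16 points with a minimum of 1 read per CpG, and -8.00 points with shares of summed reads. Dense bins with 10 to 20% in S/L p10 carried 42.9 reads per CpG and library on average, against 14.6 in sparse bins of that class. Without bins of over 3 times the median reads per CpG, 1018 dense bins remained and the difference was -2.67 points ± 0.335.

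The difference was not the same in every level class. Dense bins had lost less than sparse bins in all 6 classes between 10 and 70% in S/L p10, in each of the 3 lines. At 10 to 20% the loss was 64.8% ± 3.07 in 352 dense bins and 69.5% ± 2.03 in 2046 sparse bins. The classes furthest apart were 40 to 50%, with 64.8% ± 1.83 in 79 dense and 72.7% ± 1.01 in 1613 sparse bins, and 60 to 70%, with 62.0% ± 1.60 in 59 dense and 70.1% ± 1.10 in 2571 sparse bins. At 70 to 80% the order was the other way round, with 66.5% ± 0.957 in 69 dense and 65.5% ± 0.904 in 4767 sparse bins. At 90% or more it was 43.9% ± 1.12 in 41 dense and 44.4% ± 0.586 in 6226 sparse bins (SD, n = 3 lines for each). These class values are descriptions with no test of their own. In bins of 20 or more CpGs between 10 and 20%, the loss was 58.5% ± 3.39, against 70.6% ± 2.13 in bins of 3 to 4 CpGs of that class. The 53 bins of that densest class carried 139 reads per CpG and library on average, and the part of that depth in the value was not tested. At 80 to 90% in S/L p10, the loss was 56.5% ± 1.19 in 122 dense bins and 56.2% ± 0.837 in 11891 sparse bins, which differed by less than the spread between lines.

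The loss differed less between autosomes than between level classes. In bins at 50% or more in S/L p10, the loss ran from 53.7% ± 0.987 on chromosome 3 to 58.8% ± 0.979 on chromosome 11 among the autosomes (SD, n = 3 lines). Chromosome 3 had lost less than chromosome 11 in each line. The S/L p10 mean of these bins was 82.6% on chromosome 3 and 79.8% on chromosome 11, and the part of that level in the loss was not tested. On chromosome X, 56 such bins had lost 49.5% ± 3.12, with 46.3% in J-37 and 52.6% in J-35. These are descriptions with no test.

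Single CpGs that were nearly fully methylated in S/L did not split into kept and erased ones. The 1291 CpGs with at least 20 reads in each library and 80% or more in each S/L p10 library averaged 48.4% in J-34, 48.1% in J-35 and 48.9% in J-37 in 2i/L p10, against 90.6%, 90.7% and 90.7% in S/L p10. Their 2i/L p10 levels formed 1 broad hump. In J-34, 21.0% of them fell between 40 and 50%, and 1.01% were under 10% and 1.47% at 90% or more. The SD over these CpGs was 18.5 points in J-34, 19.3 in J-35 and 18.6 in J-37, against 8.52, 9.28 and 9.18 points from read sampling alone at those depths. The level a CpG kept was similar from line to line: across the 1291 CpGs, Pearson's r between 2i/L p10 libraries was 0.786 to 0.788. This is a description across CpGs of shared fragments, not of independent replicates.

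**Figure D3:**
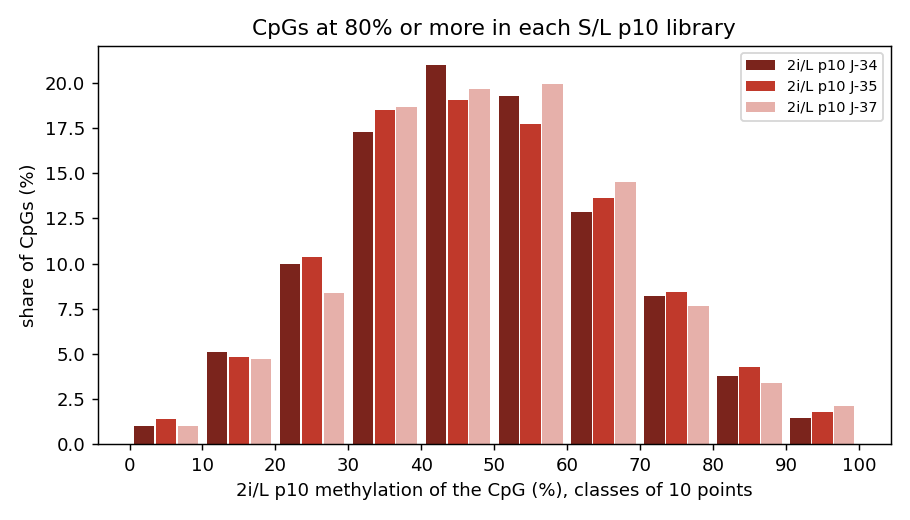
Share (%) of 1291 CpGs, each at 80% or more in all S/L p10 libraries, in classes of 10 points of their 2i/L p10 methylation (%), 1 bar per line. The bars are highest at 30 to 60% and low at both ends, with 1.01% of the CpGs of J-34 under 10% and 1.47% at 90% or more.

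The bins with the smallest and the largest loss were picked by their values, so what follows describes them without a test of their own. Among bins of 3 to 9 CpGs with at least 30 reads in each library, the smallest loss, judged by the line that lost most, was on chromosome 9, from 12138306 to 12138349 in mm9 coordinates (6 CpGs). It had 94.0%, 97.8% and 94.4% in 2i/L p10, against 94.7%, 98.6% and 96.1% in S/L p10. The groups overlapped, and the values stayed near full methylation in both media. After 16 passages in 2i/L the same bin averaged 80.9%, against 98.8% in S/L p20. The other 4 retained sparse bins averaged 75.1 to 94.97% in 2i/L p10, and their means differed from S/L p10 by no more than 3.03 points. In 2i/L p20 these 4 averaged 53.9 to 72.5%, against 70.3 to 97.4% in S/L p20.

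The 5 retained bins of 10 or more CpGs averaged 68.8 to 77.2% in 2i/L p10, against 90.1 to 95.4% in S/L p10. A pair of them were neighbours on chromosome 8, from 125951127 to 125952495. The first had 70.5%, 69.8% and 71.3% in 2i/L p10, against 94.0%, 94.0% and 94.1% in S/L p10. These neighbours carried 230 and 103 reads per CpG and library, far above the median of 13.75 over all bins, and whether they are copies of a repeat was not tested.

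At the other end, judged by the line that lost least, stood a bin on chromosome 12, from 8454137 to 8454193 (3 CpGs). It had 1.64%, 0% and 1.52% in 2i/L p10, against 73.5%, 80% and 82.2% in S/L p10. The groups were far apart. Among dense bins the largest loss was on chromosome 7, from 134133040 to 134133427 (13 CpGs, no library under 215 reads). It had 4.85%, 5.62% and 4.63% in 2i/L p10, against 52.0%, 59.5% and 63.9% in S/L p10. The lines were close to one another in 2i/L p10 and spread over 11.9 points in S/L p10. The 10 bins with the largest loss averaged 0.717 to 9.41% in 2i/L p10.

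In a few bins the lines parted in 2i/L although they were alike in S/L. The widest range was on chromosome 15, from 38320347 to 38320370 (3 CpGs, no library under 30 reads), with 10% in J-34, 40% in J-35 and 63.6% in J-37 in 2i/L p10, against 90.6%, 93.7% and 81.8% in S/L p10. No line was low throughout: on chromosome 11, from 101661685 to 101661727, the 2i/L p10 values were 38.8% in J-34, 70.7% in J-35 and 20.4% in J-37, against 88.6%, 79.6% and 94.4% in S/L p10.

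Promoters were examined to attach gene names to these values. RefSeq promoter windows of 300 bases (250 before the start of a gene and 50 after it) were placed on the files' mm9 CpG positions by their pattern of CpG spacing, an approach chosen after the data were seen. Of 32851 windows, 10183 were placed, and 6384 autosomal ones had at least 3 measured CpGs after overlapping windows were joined. Most promoters were unmethylated in both media: 6170 were under 10% in S/L p10, and these averaged 0.456% ± 0.0124 in 2i/L p10 and 0.649% ± 0.0173 in S/L p10 (SD, n = 3 each). In all, 108 promoters (1.69%) were called lower and 0 higher by the same rule. At an unadjusted p under 0.05, 842 promoters differed, 63 of them higher, while 91 were lower and 0 higher by the quasi-binomial model. The 78 promoters at 50% or more averaged 25.5% ± 1.02 in 2i/L p10 and 75.9% ± 1.25 in S/L p10, a loss of 66.3% ± 1.51 (SD, n = 3 lines), and 76 of them were called lower. Bins of 70 to 80% in S/L p10 had lost 65.5% ± 0.905.

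The promoters with the largest loss, among those with 50% or more in S/L p10 and 30 reads in each library, were those of Scn8a, Trp73, Pnliprp2, Timm8a2 and Rpl39l. These and the retained promoters below were picked by their values. Their adjusted p-values and the gaps between groups are therefore descriptions and add no support of their own. The stretches before the start of a few promoters follow, 5′ to 3′ along the gene, from RefSeq (GRCm38.p6). They hold 2 of the 5 measured CpGs of Scn8a, 4 of 7 of Timm8a2, 7 of 8 of Rpl39l, 6 of 6 of Gm6566 and 21 of 30 of Tmem267, and the other measured CpGs lie after the start and are not shown. They are shown because the first 3 are among the promoters with the largest loss and the other 2 among those with the smallest, and capitals mark the CpGs measured in all 6 libraries.
Scn8a: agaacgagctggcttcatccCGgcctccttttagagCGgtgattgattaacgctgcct
Timm8a2: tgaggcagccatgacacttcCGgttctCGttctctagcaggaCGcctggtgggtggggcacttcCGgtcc
Rpl39l: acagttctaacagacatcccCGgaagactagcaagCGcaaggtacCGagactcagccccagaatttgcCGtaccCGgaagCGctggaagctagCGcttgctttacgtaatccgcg
Gm6566: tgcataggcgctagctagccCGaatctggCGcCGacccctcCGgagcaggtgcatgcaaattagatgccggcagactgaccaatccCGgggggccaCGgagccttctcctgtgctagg
Tmem267: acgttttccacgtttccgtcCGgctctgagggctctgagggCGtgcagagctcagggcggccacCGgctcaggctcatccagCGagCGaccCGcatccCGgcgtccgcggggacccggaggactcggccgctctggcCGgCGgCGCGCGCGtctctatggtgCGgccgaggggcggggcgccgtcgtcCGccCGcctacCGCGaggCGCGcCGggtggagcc

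Scn8a, which encodes a voltage-gated sodium channel of neurons, had 4.08%, 3.57% and 8.57% in 2i/L p10, against 67.3%, 71.2% and 62.1% in S/L p10. The 5 measured CpGs lie on chromosome 15 from 100766646 to 100766734 in mm9, and the limma adjusted p was 1.46e-06. Every 2i/L p10 library was below every S/L p10 library by a wide margin, which follows from the pick. The single library of J-34 cells kept in PD for 6 passages had 1.92% there, and that of J-34 cells in CHIR had 90%, with no replicates.

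Rpl39l, a paralogue of a ribosomal protein of the large subunit that is expressed in testis, had 9.56%, 5.88% and 6.72% in 2i/L p10, against 71.7%, 66.7% and 72.7% in S/L p10 (limma adjusted p = 1.46e-06). Its 8 CpGs lie on chromosome 16 from 10170176 to 10170321, inside 1 of the 5 dense bins with the largest loss. Timm8a2, a paralogue of a mitochondrial import chaperone, had 5.92%, 4.79% and 7.19% in 2i/L p10, against 60.4%, 56.9% and 59.1% in S/L p10 (limma adjusted p = 2.51e-06). Trp73, a transcription factor of the p53 family, averaged 5.25% ± 1.37 in 2i/L p10 and 60.1% ± 3.66 in S/L p10 (SD, n = 3 each). Pnliprp2, a lipase of the pancreas, averaged 5.24% ± 1.64 in 2i/L p10 and 53.4% ± 5.74 in S/L p10. These 5 promoters had lost 89.5 to 91.9% of the S/L level.

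The 5 retained promoters were those with the smallest loss in the line that lost most. They did not all pass the test, and a weak result can follow from the pick. Gm6566, a predicted gene, had 65.8%, 83.3% and 72.2% in 2i/L p10, against 91.5%, 89.6% and 84.9% in S/L p10. The highest 2i/L p10 value came close to the lowest S/L p10 value, and the limma adjusted p was 0.139. The window shared by Tmem267 and 3110070M22Rik, with 30 measured CpGs on chromosome 13 from 120277078 to 120277325, had 40.8%, 44.1% and 40.2% in 2i/L p10, against 66.0%, 69.8% and 61.8% in S/L p10. The groups did not overlap, at 802 or more reads in each library, but the limma adjusted p was 0.0946, while the quasi-binomial model gave 0.00988. The 802 to 1489 reads over these 30 CpGs are more per CpG than the median of 13.75 over all bins. Whether this window is a copy of a repeat was not tested. Lcat, an enzyme that esterifies cholesterol in plasma, averaged 45.8% ± 5.65 in 2i/L p10 and 83.1% ± 2.58 in S/L p10 (SD, n = 3 each) and was called lower, as were the predicted genes Gm36875 and Gm16059. Gm36875 had an adjusted p of 0.00168 by limma and 0.0542 by the quasi-binomial model. The 5 retained promoters had lost 16.8 to 44.9% of the S/L level at passage 10. In 2i/L p20 they averaged 20.1 to 54.7%, against 63.6 to 87.0% in S/L p20. As with the bins, a larger loss in other libraries can follow from the pick at passage 10.

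Germline genes are a set in which promoter methylation is known to keep genes silent in somatic cells. Of a list of 12 such genes beside the Rhox group, 8 promoters were measured, and 5 of them were called lower, against 1.69% of all promoters tested. The list was drawn up with earlier results of these data known, and most promoters start too low to be called. The median difference of the 8 was -23.8 points, against -0.0126 points over all promoters. Their losses ran from 64.5 to 84.1% of the S/L level, with a median of 76.7%. Among all promoters at 10 to 50% in S/L p10, the median loss was 74.0%, and 23.5% of the 136 were called lower. At 50% or more it was 68.5%, and 97.4% of the 78 were called lower. Of the germline promoters called lower, those of Asz1 and Sycp1, both above 50% in S/L p10, are shown with the measured CpGs in capitals (RefSeq, GRCm38.p6). The stretches hold 4 of the 5 measured CpGs of Asz1 and 5 of 5 of Sycp1.
Asz1: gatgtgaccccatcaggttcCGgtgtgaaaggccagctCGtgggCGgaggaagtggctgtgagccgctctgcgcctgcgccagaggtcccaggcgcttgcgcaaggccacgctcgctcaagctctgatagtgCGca
Sycp1: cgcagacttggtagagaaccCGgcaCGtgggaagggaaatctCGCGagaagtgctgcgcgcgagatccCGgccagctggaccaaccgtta

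Tex101, a glycoprotein of germ cells, had 32.4%, 27.1% and 25.9% in 2i/L p10, against 82.3%, 79.7% and 78.3% in S/L p10 (limma adjusted p = 7.23e-05). Its 4 CpGs lie on chromosome 7 from 25457025 to 25457050. It was the most methylated of the 8 in both media, and the groups did not overlap.

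Asz1, a protein of germ cells that takes part in transposon silencing by piRNAs, had 7.96%, 12.3% and 22.95% in 2i/L p10, against 64.4%, 63.5% and 53.2% in S/L p10 (limma adjusted p = 0.000287). J-37 was the highest line in 2i/L p10 and the lowest in S/L p10. Sycp1, which forms the transverse filaments of the synaptonemal complex, had 15.3%, 13.6% and 18.4% in 2i/L p10, against 51.9%, 53.4% and 45.3% in S/L p10 (limma adjusted p = 0.00236). The groups were well apart at both genes.

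Dazl, an RNA-binding protein that germ cells need, had 4.88%, 9.09% and 2.70% in 2i/L p10, against 34.5%, 37.5% and 22.2% in S/L p10 (limma adjusted p = 0.00198), at 29 reads or more in each library. Slc25a31, a mitochondrial ADP/ATP carrier of testis, averaged 4.13% ± 3.94 in 2i/L p10 and 26.0% ± 5.65 in S/L p10. Its limma adjusted p was 0.00288, and 0.0779 in the quasi-binomial model.

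The other 3 promoters were low already in S/L. Hormad1, a protein of the meiotic chromosome axis, averaged 3.79% ± 1.52 in 2i/L p10 and 19.6% ± 3.42 in S/L p10 over 16 CpGs. Its limma adjusted p was 0.00141, but the difference of -15.8 points was too small for a call. Mael, a factor of the piRNA pathway, averaged 3.21% ± 2.77 in 2i/L p10 and 14.1% ± 4.96 in S/L p10 (limma adjusted p = 0.0114, not called). Ddx4, the germ cell RNA helicase also called Vasa, averaged 2.51% ± 0.148 in 2i/L p10 and 7.51% ± 2.96 in S/L p10 (by limma, adjusted p = 0.115). The other names on the list (Sycp3, Tex19.1, Tdrd1, Taf7l and the Rhox genes) were not analysed here.

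**Figure D4:**
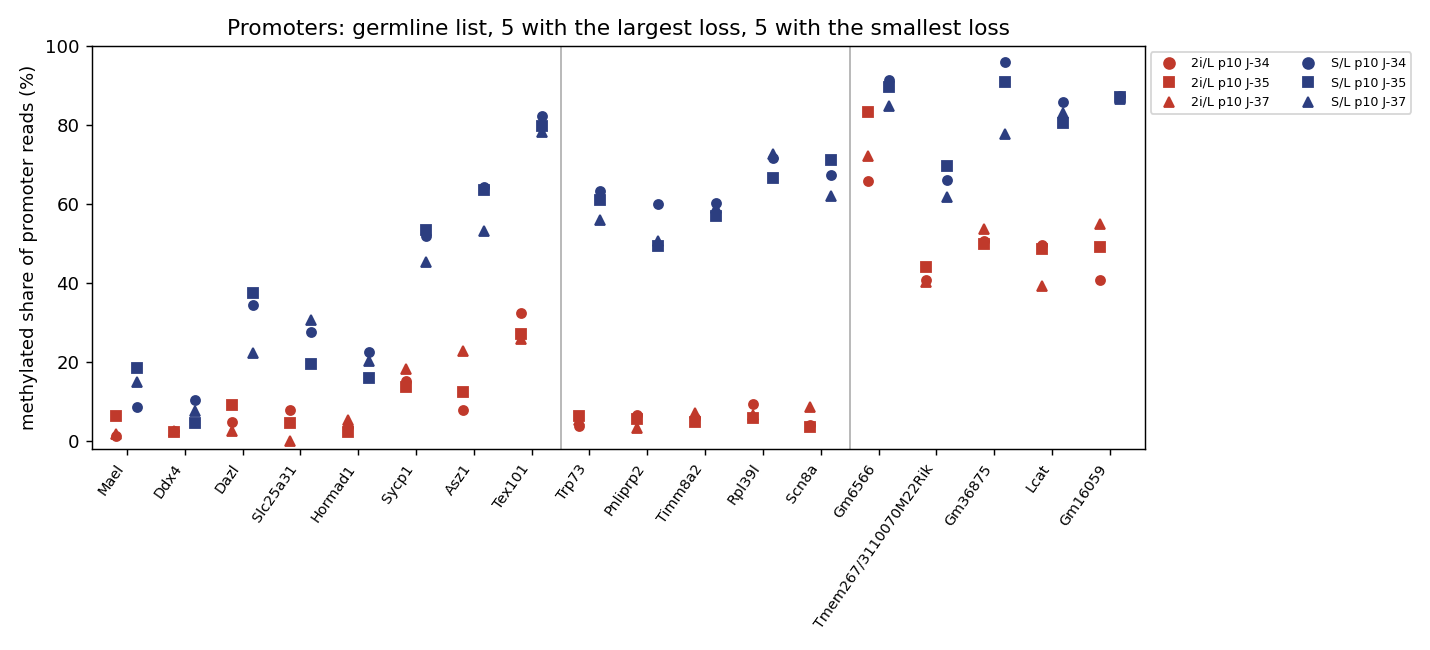
Methylated share of reads (%) in 18 promoters, 1 point per library, 2i/L p10 left and S/L p10 right of each position. From left to right stand the 8 germline promoters, the 5 with the largest loss (2i/L p10 means of 5.24 to 7.39%) and the 5 with the smallest loss (2i/L p10 means of 41.7 to 73.8%). The largest loss was judged by the line that lost least, and the smallest by the line that lost most.

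After 16 passages the lines were further apart in what they had lost. In 27302 of the bins at 50% or more in S/L p10, the loss at passage 20 (2i/L p20 against S/L p20) was 49.7% in J-34, 63.2% in J-35 and 75.1% in J-37, while after 6 passages it was 56.6%, 57.6% and 55.9%. The baselines differ: S/L p20 stood at 73.7% ± 0.832 in these bins, and S/L p10 at 81.4% over all 27787 bins of that class. The 2i/L p20 mean was 27.5% ± 9.35 (SD, n = 3 lines). The mean loss was 62.7% ± 12.7 at passage 20 and 56.7% ± 0.847 at passage 10 (SD, n = 3 lines). An exact two-sided permutation test of these means, which did not pair the lines, gave p = 0.6. The spread between lines had no test. Over 26472 such bins, the single J-34 libraries of cells kept in PD and in CHIR for 6 passages stood at 36.6% and 79.7%. The J-34 libraries of 2i/L p10 and S/L p10 stood at 35.2% and 81.0% in those bins. PD and CHIR had no replicates, so this comparison has no test.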

How the data were processed

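RRBS libraries were made with the Ovation kit, and 12 barcoded reactions were pooled before bisulfite conversion, per the labels' protocols. BSMAP 2.89 and mm9 were used, per the submitters' processing notes; read filters and bisulfite conversion are not described in what was used here. The authors deposited 1 list of CpGs per library, with methylated over all reads as 1 text field and a score equal to 1000 times that share rounded down (checked at every CpG). The plan took limma because that field is not a plain count column, though its counts were split out for every fit. The test was limma 3.58.1 (R 4.3.3) on log2((methylated + 1)/(unmethylated + 1)), two-sided, group only, checked on simulated data. It did not weight libraries by their depth. The quasi-binomial model was fitted to the same counts. Single values had exact permutation tests.

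Members and lists were chosen with earlier results of these data known. Named bins have 50% or more in S/L p10 and 30 reads in each library; those with the 5 smallest and the 5 largest within-line losses were taken for 3 to 9 and for 10 or more CpGs, with the 5 widest 2i/L p10 ranges at an S/L p10 range of at most 15 points. The plan named genes only with an mm9 annotation. None was at hand, so promoter windows were placed by an exact match of CpG spacing (6 or more CpGs, 1 match only, same neighbours), with the rule for bins applied to them; 98.97% of single matches passed the neighbour check. Coordinates run from first to last CpG, counted from 1. The same cell line pairs the samples across media, per the labels; deviations of same-line libraries correlated at -0.0125 to 0.00286.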

Additional observations from a re-analysis of the deposited data

How the results depend on the processing

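Both library levels kept their direction under each minimum of reads tried and with any 1 library left out. Without 1 library, the difference in level was -16.1 to -15.95 points and that in read share -15.3 to -14.7 points. With the cell line as replicate block, an exact sign-flip permutation test over 3 lines cannot go below p = 0.25, which it gave for the level (-16.0 points) and for dense against sparse bins (-3.05 points); limma with the block called 30691 bins and 106 promoters lower, and it changed no call of a named bin or promoter. Bins called lower numbered 30530 to 30661 without 1 library. They numbered 6364 with a minimum of 10 reads per CpG, 66337 with 1 read and 7730 with at least 5 CpGs per bin, settings that change the number of bins tested (22700, 103064 and 28699). Bins called higher numbered 0 to 1 without 1 library and 2 with a minimum of 1 read. They numbered 203 when a change, up or down, of at least 0.5 times the S/L level replaced the 20 points. The loss in methylated bins was 56.1 to 56.9% without 1 line, 51.9% in bins at 80% or more and 55.1% with a minimum of 1 read. Dense against sparse loss was -2.73 to -2.95 points without 1 line; it was -11.05 points with dense from 20 CpGs and -7.31 points with a minimum of 10 reads, where 1 level class was left. Promoters called lower, added after the data were seen, numbered 29 with a minimum of 10 reads, 169 with 1 read and 257 with that relative rule, and 99 to 109 without 1 library. Among named bins, differences near 0 changed sign in 3 retained bins: without 1 library they ran from -2.23 to 0.0238 points on chromosome 9 (highest without S/L p10 J-35), from -0.00753 to 5.05 points on chromosome 11 (lowest without S/L p10 J-35) and from -1.15 to 2.86 points on chromosome 1 (below 0 without 2i/L p10 J-35 or J-37 at -1.15, or S/L p10 J-34 at -0.856), and a minimum of 1 read gave -1.14 points on chromosome 1. The promoter of Mael, under the 20 points, had adjusted p-values from limma of 0.0718 to 0.141 without 1 of 4 libraries (2i/L p10 J-34 or J-37, S/L p10 J-35 or J-37). The causes of these moves were not tested. Depth limits single bins: the median bin had 64.0 reads per library, and intervals from reads without molecular identifiers would cover counting error only.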

Other observations

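A few weakly methylated bins stood higher in 2i/L p10, with an adjusted p under 0.05 but under the 20 points that a call needs. They were chosen after their values were seen. The widest rise was on chromosome 2, from 170113911 to 170113997 (4 CpGs), with 28.0%, 29.9% and 21.7% in 2i/L p10, against 17.7%, 10.1% and 0% in S/L p10 (limma adjusted p = 0.0128). Without the S/L p10 library of J-37 its adjusted p was 0.0625. On chromosome 5, from 120883249 to 120883345 (3 CpGs), the values were 19.4%, 17.5% and 20.9% in 2i/L p10, against 10.0%, 5.88% and 4.26% in S/L p10 (limma adjusted p = 0.00776). In that bin the groups did not overlap, and the 2i/L p20 mean was 14.8%, against 4.61% in S/L p20. The bin with the widest rise averaged 12.0% in 2i/L p20, against 4.90% for S/L p20. Other bins with wide rises were closer at that passage. On chromosome 9 (from 77263848) the means were 20.6% with 2i/L against 17.2% with S/L. On chromosome 2 (from 105527348) they were 16.1% against 13.8%. On chromosome 6 (from 23196939) the order was reversed, at 14.7% with 2i/L against 15.5% with S/L. In all, 203 of 58055 bins were higher at an adjusted p under 0.05, and 10 of all bins rose by 10 points or more.

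Neighbouring CpGs ended at similar levels in 2i/L p10. Among CpGs at 80% or more in S/L p10 with at least 10 reads in each library, pairs 2 to 10 bp apart had a Pearson r of 0.638 between their 2i/L p10 levels over 2747 pairs. It was 0.307 over 5706 pairs 50 to 100 bp apart and 0.396 over 1933 pairs 500 to 1000 bp apart. Close pairs share sequencing reads and distant ones do not, so these are descriptions across CpGs with no test.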
